A study of Homo sapiens with 24 samples.

Results

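The AP-1 and EGR immediate early genes were followed in Nalm6, a B-cell precursor acute lymphoblastic leukemia cell line, by RNA-seq of 24 libraries. The set was 9 genes listed by symbol: FOS, FOSB, JUN, JUNB, JUND, EGR1, EGR2, EGR3 and IER2. It was chosen with earlier results of these data known. These genes are the members below. The members had 17 of the 64519 RefSeq accessions in the table of counts and made up 9 of its 27387 gene symbols. The cells expressed shRNA against a non-specific sequence (shNS) or against G9a, GLP or HP1γ (shG9a, shGLP, shHP1g), and each was treated with 100 nM dexamethasone (dex) or with the same volume of its vehicle ethanol (etoh) for 8 h, which gave 8 conditions of 3 biological replicates. All 24 libraries therefore came from a single cell line that had been transduced with an shRNA lentivirus, the shNS controls included, and the replicates of a condition were collected on different days. G9a and GLP are related lysine methyltransferases, HP1γ is a chromatin protein that binds methylated lysine, and dex activates the glucocorticoid receptor (GR). The comparisons asked how these genes responded to dex and whether their levels depended on each of the 3 coregulators.

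AP-1 is a dimer of FOS family and JUN family proteins that joins through a leucine zipper and binds DNA at a short palindrome. EGR proteins are zinc finger factors that bind GC-rich sites, and NAB proteins bind EGR factors as corepressors. Such immediate early genes are known for a brief rise within minutes of a growth factor, stress or antigen receptor signal, much of it through serum response factor (SRF) and its ETS family partners at promoter CArG boxes, and GR is known to interfere with AP-1 activity at target genes. IER2 is a small nuclear protein induced with the same kinetics. Here the cells, cultured in serum, were sampled at a single time hours after the addition of dex, and the labels name no other stimulus.

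The RefSeq promoters of the members were searched for these elements in a short window around the annotated start. The bases from 160 before to 1 before the annotated start are printed for EGR1, JUN and IER2 on the gene's own strand, in build GRCh38.p14, since they carried the CArG boxes, the largest change with depletion and the largest change with dex among the members. Capitals mark CArG boxes in EGR1 and the motif TGACNTCA in JUN, and IER2 had no capitalised match.
EGR1, chr5:138465319-138465478, plus strand: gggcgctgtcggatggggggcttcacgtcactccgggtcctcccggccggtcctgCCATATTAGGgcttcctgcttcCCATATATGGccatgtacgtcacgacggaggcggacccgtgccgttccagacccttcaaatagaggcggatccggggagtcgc
JUN, chr1:58784048-58784207, minus strand: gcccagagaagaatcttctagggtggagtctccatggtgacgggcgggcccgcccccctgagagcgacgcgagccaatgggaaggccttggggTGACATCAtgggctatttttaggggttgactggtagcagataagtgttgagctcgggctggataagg
IER2, chr19:13150251-13150410, plus strand: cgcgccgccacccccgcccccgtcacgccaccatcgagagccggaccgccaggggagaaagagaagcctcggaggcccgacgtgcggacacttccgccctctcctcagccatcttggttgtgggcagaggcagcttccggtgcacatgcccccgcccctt

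Motifs were searched on both strands in windows from 250 bases before the start to 50 after it. CArG boxes stood in 1.29% of 35116 promoters, and EGR1 had 2 of them, at -105 to -96 and at -83 to -74 from the start. The other members searched, FOS included, had no CArG match in this window. Sites outside the window were not searched, so a gene without a match may still carry one. TGACNTCA, which contains the cyclic AMP response element TGACGTCA as a special case, stood in 7.72% of promoters, at -67 to -60 in JUN and at -200 to -193 in JUND. TGACNTCA was added to the search after these promoters had been read, and the JUND match was TGACGTCA itself, which 1.85% of promoters held. The GR core hexamer AGAACA was in 14.8% of promoters and, among the members, in FOSB at -142 to -137. The AP-1 site TGACTCA (4.95% of promoters) and the EGR sites GCGGGGGCG (5.07%) and GCGTGGGCG (0.795%) had no match in the members searched. GGAA, the core of ETS sites, was in 95.5% of promoters and in 7 of the 8 members searched, JUND being without a match. A match describes letters in this window, not binding.

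Only 5 of the 9 members could be tested, namely the 5 that have a single accession in the table. Transcripts were tested if they had more than 1 CPM (counts scaled to a library of 1000000) in at least 2 libraries, which kept 10167 transcripts. IER2 (NM_004907, chr19:13261225-13265725 in GRCh37) had 1193 to 2924 counts per library, JUNB (NM_002229, chr19:12902300-12904129) had 864 to 1772 and JUN (NM_002228, chr1:59242517-59249720) had 380 to 1444. EGR1 (NM_001964, chr5:137801168-137804992) had 19 to 45 counts and FOS (NM_005252, chr14:75745529-75748933) had 4 to 28. The counts were given per accession, and JUN and JUNB are single-exon genes in the GENCODE annotation of that build.

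The other 4 members were at or near 0 and give no information on their expression here. FOSB (chr19:45971253-45978437) had 8 counts in all 24 libraries together on NM_006732 and 0 on NM_001114171. EGR3 had 9 counts in all on NM_004430 and 0 on its 2 other accessions. JUND (chr19:18390504-18392432) had 0 counts on both of its accessions, and EGR2 (chr10:64571756-64578927) had 0 on all 5. Each of these genes has several accessions, and over the whole series 26.8% of genes with 2 or more mRNA accessions had a tested accession against 51.6% of genes with 1. Housekeeping genes showed the same split. ACTB, with 1 accession, had 2729578 counts over the 24 libraries, while GAPDH, with 4, had 1121. A count of 0 for a gene with several accessions therefore cannot be read as absence of its mRNA. By counting error alone, 3 counts, the limit that a count of 0 allows, correspond to 0.216 to 0.317 CPM depending on the library.

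Library totals ranged from 9289533 to 14387770 counts with a median of 11132064.5. Known dex targets rose in shNS cells, TSC22D3 (NM_004089) by 3.47 and FKBP5 by 1.75 on the log2 scale. Of the depleted genes, EHMT1 (GLP) was at 2.62 CPM in shGLP against 4.08 in shNS with ethanol (log2 change -0.65, adjusted p = 0.0923) and CBX3 (HP1γ, NM_016587) was at 2.86 in shHP1g against 4.01 (-0.50, adjusted p = 0.277), neither called at 18 to 50 and 50 to 127 counts per gene. EHMT1 has 6 accessions and CBX3 has 2, so the low counts of genes with several accessions limit this check too. EHMT2 (G9a) was not analysed here, so these counts do not check the shG9a label. The paper itself reports efficient depletion of G9a, GLP and HP1γ, at the protein and mRNA level, in the cells used for RNA-seq. The B-cell precursor markers RAG1 (12333 to 32723 counts), IGLL1 (352 to 878), MME (189 to 483) and CD79A (19 to 178) were present, whereas CD79B, PAX5, EBF1, VPREB1 and DNTT, all genes with several accessions, had at most 7 counts. T-cell, erythroid and epithelial markers were at or near 0. The myeloid marker LYZ stood at 208 to 338 counts in the 6 shGLP libraries and at 20 to 102 in the other 18.

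IER2 was the most abundant of the tested members, and EGR1 and FOS were the lowest. Averaged over the 24 libraries and divided by exon length, the level was 80.6 CPM per kb for IER2, 57.4 for JUNB, 23.4 for JUN, 0.8 for EGR1 and 0.658 for FOS. By mean CPM, 86.4% of tested transcripts were at or below IER2, 80.1% at or below JUNB, 75.9% at or below JUN, 33.8% at or below EGR1 and 21.6% at or below FOS. The 2 members with the lowest levels were thus those with the widest confidence intervals below.

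**Figure D1:**
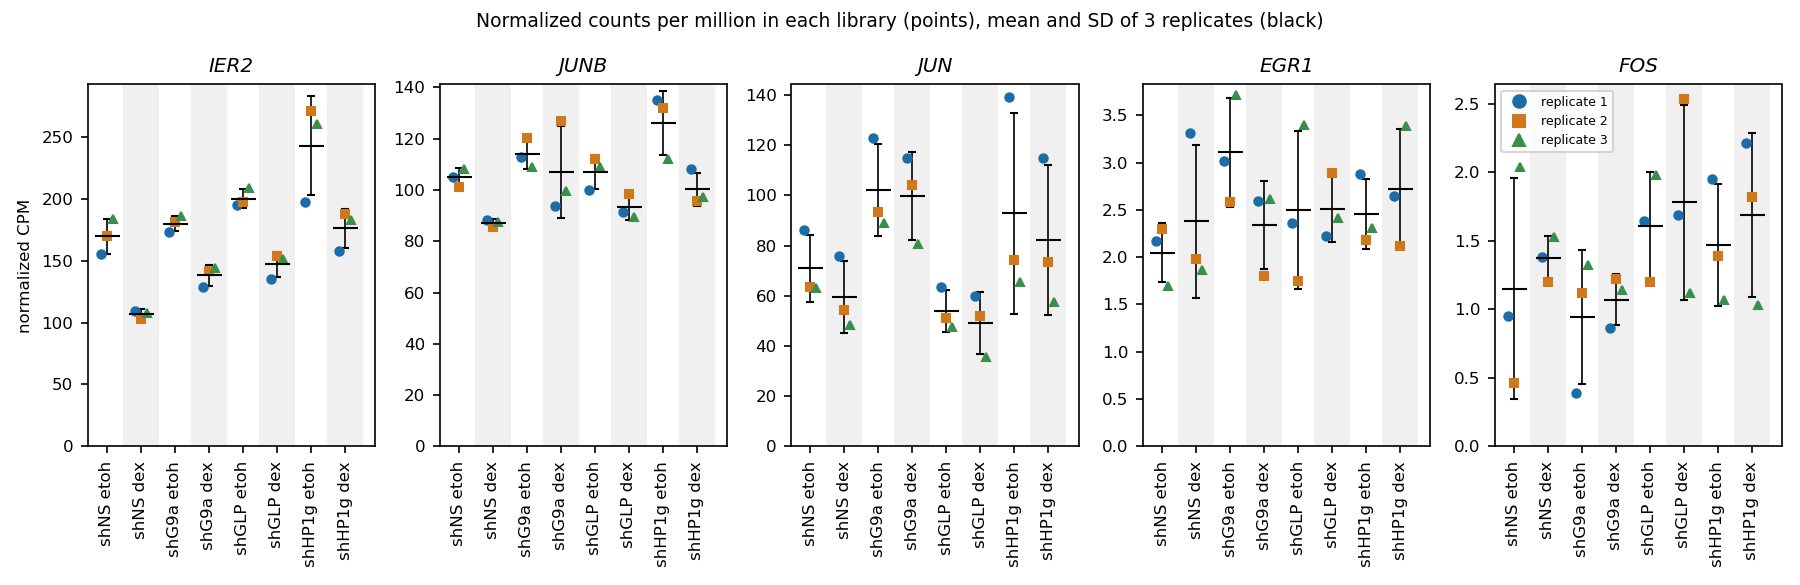
Normalized CPM (linear axis from 0) of the 5 tested members in each of the 24 libraries, with dex conditions shaded; points are replicates and black bars the mean and SD of 3. IER2 is lower with dex in every shRNA, and JUN is lowest in the shGLP libraries and highest in replicate 1. For FOS and EGR1, conditions next to each other in order of mean level overlap.

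IER2 fell with dex in all 4 kinds of cells. In shNS cells it was at 155, 170 and 184 CPM with ethanol and at 109.7, 103 and 108 with dex in replicates 1 to 3. The dex libraries were all below the ethanol libraries, and the means were 169.6 ± 14.3 and 107 ± 3.54 CPM (SD, n = 3). The fitted level with dex was 63.2% of that with ethanol (log2 change -0.66, SE 0.07, adjusted p = 4.34e-07, edgeR), in a comparison where 9.95% of all tested transcripts were called.

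With shG9a, IER2 was at 173, 181 and 186 CPM with ethanol and at 129, 142 and 144 with dex. With shGLP it was at 195, 197 and 209 CPM with ethanol and at 135, 154 and 151 with dex. With shHP1g it was at 197, 271 and 260.3 CPM with ethanol and at 158, 188 and 183 with dex. The ethanol and dex libraries did not overlap in any of the 3, and the level fell in 12 of 12 pairs of the same shRNA and replicate. The log2 changes were -0.38 in shG9a (adjusted p = 0.00127), -0.45 in shGLP (adjusted p = 0.000211) and -0.46 in shHP1g (adjusted p = 0.000158), each with SE 0.07, where 6.24%, 3.29% and 3.22% of transcripts were called. These 3 calls were lost when all libraries of replicate 3 were left out (adjusted p = 0.089, 0.078 and 0.0777) at nearly the same size of change.

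The fitted fall was larger in shNS cells than in the depleted cells, but no difference passed its test. The dex response with depletion minus that with shNS was 0.28 for shG9a (95% interval 0.07 to 0.49), 0.21 for shGLP (0.0045 to 0.42) and 0.21 for shHP1g (-0.00023 to 0.41) on the log2 scale. The unadjusted p were 0.00994, 0.0456 and 0.0502, and the adjusted p were 0.635, 1 and 1. No member was called in these 3 comparisons by edgeR, DESeq2 or limma, and 0.0885%, 0.118% and 0.0197% of all transcripts were by edgeR. At an unadjusted p under 0.05, 1, 1 and 0 members passed, both times IER2. Over all tested transcripts, 686, 395 and 387 had an unadjusted p under 0.05. All 3 differences subtract the same dex response in shNS, so they are not independent of each other.

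JUNB, a JUN family member that often opposes JUN, fell with dex to a smaller extent. In shNS cells it was at 105, 101 and 108 CPM with ethanol and at 88.2, 85.5 and 87.5 with dex, with no overlap. The fitted level fell to 83.1% (log2 change -0.27, SE 0.09, adjusted p = 0.0473), a call at the edge of the limit. It was not kept with no term for the replicate number (adjusted p = 0.115), with TMM factors (0.139) or with DESeq2 (0.0991). It was also lost without any of the 3 replicate numbers (adjusted p = 0.0704 to 0.402), and without any of 16 single libraries (0.0517 to 0.229), which were shNS ethanol replicates 1 and 3, all shNS dex, all shG9a ethanol, shG9a dex replicate 3, shGLP ethanol replicates 2 and 3, all shGLP dex, shHP1g ethanol replicate 2 and shHP1g dex replicate 3.

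In shHP1g cells JUNB was at 135, 132 and 112 CPM with ethanol and at 108, 95.7 and 97.3 with dex, again with no overlap. It fell to 79.4% (log2 change -0.33, adjusted p = 0.0267). The call was lost with no term for the replicate number (0.0804), without each replicate number (0.0559 to 0.221) and without shHP1g ethanol replicate 1 or 2 or shHP1g dex replicate 2 or 3 (0.0873 to 0.143). With shG9a it was at 113, 120.4 and 109 CPM with ethanol and at 93.9, 127 and 99.6 with dex, which overlapped (-0.10, adjusted p = 0.567). With shGLP it was at 99.8, 112 and 109 CPM with ethanol and at 91.4, 98.6 and 89.5 with dex (-0.20, adjusted p = 0.264).

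Averaged over the 4 shRNA, which uses all 12 pairs, dex lowered 2 of the 5 tested members. IER2 was at 71.3% of the ethanol level (log2 change -0.49, SE 0.04, adjusted p = 1.97e-10) and JUNB at 85.6% (-0.22, SE 0.04, adjusted p = 0.00033), the latter lower in 11 of 12 pairs. JUN was at 90.0% (-0.15, SE 0.06, adjusted p = 0.0663) and lower in 10 of 12. EGR1 (-0.01, 95% interval -0.28 to 0.25) and FOS (0.20, -0.26 to 0.65) did not pass. In this comparison 23.8% of all transcripts were called, and the median change was -0.15 over the 5 members and -0.01 over all tested. Both calls remained in every alternative run for them. The summed myeloid markers, mostly LYZ, were also lower with dex in shNS (4.14 to 7.81 CPM with ethanol and 2.74 to 3.44 with dex), and their part was not tested.

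JUN, the founding member of the JUN family, differed between the shRNA. None of its changes with dex passed in the reported model (-0.27 in shNS, adjusted p = 0.188, -0.02 in shG9a, -0.15 in shGLP and -0.16 in shHP1g). With ethanol it was at 86.3, 63.4 and 63.2 CPM in shNS, and at 63.3, 51.1 and 47.4 in shGLP. With shHP1g it was at 139, 74.2 and 65.3 CPM, and with shG9a at 123, 93.3 and 88.8. Replicate 1 was the highest in each of the 4, so that conditions overlapped although each replicate gave nearly the same order. With dex it was at 75.7, 54.5 and 48.3 CPM in shNS and at 59.7, 52 and 35.4 in shGLP. With shHP1g it was at 115, 73.6 and 57.5 CPM with dex, and with shG9a at 115, 104 and 80.5. In 6 of 6 sets of the same replicate and treatment shGLP was lowest and shNS second, and shG9a was highest in 4 and shHP1g in 2.

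JUN levels therefore had to be read within a replicate. The mean over the 8 conditions was 97.1 CPM in replicate 1, 70.7 in replicate 2 and 60.8 in replicate 3 (difference among replicate numbers, adjusted p = 1.69e-06). IER2 also differed (156, 176 and 178 CPM, adjusted p = 0.00866), and these were 2 of the 5 tested members where 28.0% of all transcripts were called. With the replicate number in the model JUN rose in shG9a with ethanol by 0.52 on the log2 scale (SE 0.12, adjusted p = 0.0105, 3.73% of transcripts called) and with dex by 0.76 (SE 0.12, adjusted p = 0.000163, 8.80% called). Without it the changes were 0.52 and 0.75 but neither was called (adjusted p = 0.51 and 0.136). Within replicates 1, 2 and 3 the log2 ratio to shNS was 0.51, 0.56 and 0.49 with ethanol and 0.60, 0.93 and 0.74 with dex. The call with ethanol was also lost without replicate 2 or 3 (0.103 and 0.161) and without shNS ethanol replicate 1, shNS ethanol replicate 2 or shG9a ethanol replicate 3 (0.0764 to 0.0779).

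JUN was also above shNS in 6 of 6 pairs with HP1γ depletion, with a less uniform ratio. The log2 ratio to shNS was 0.69, 0.23 and 0.05 with ethanol in replicates 1 to 3 and 0.61, 0.43 and 0.25 with dex, so replicate 1 gave the largest ratio in both. JUN passed with dex (0.44, SE 0.12, adjusted p = 0.0318, 4.09% of transcripts called) and not with ethanol (0.34, adjusted p = 0.136). The call was lost with no term for the replicate number (adjusted p = 0.591) and with TMM factors (0.0586). It was also lost without each replicate number (0.0846 to 0.148) and without any of 5 libraries, the 3 shNS dex libraries and shHP1g dex replicates 1 and 2 (0.0727 to 0.183).

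With GLP depletion JUN was lower than in shNS in 6 of 6 pairs, though not past the limit. The log2 changes were -0.39 with ethanol (95% interval -0.64 to -0.14, adjusted p = 0.0785) and -0.28 with dex (-0.53 to -0.03, adjusted p = 0.232). No member was called with ethanol, where 3.61% of transcripts were, although JUN and IER2 had an unadjusted p under 0.05, as 1330 transcripts did. DESeq2 called both (2 members). The LYZ counts given above were higher in these same shGLP libraries, where the summed myeloid markers LYZ, CD14 and MPO reached 20.4 to 34 CPM against 2.74 to 11.7 elsewhere. Over the 24 libraries CD14 had 0 to 4 counts and MPO 2 to 40. The part of these markers in the JUN levels was not tested.

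The depletions were also compared with each other, averaged over ethanol and dex, in 3 comparisons added after the data had been seen. JUN was 1.96-fold higher in shG9a than in shGLP (log2 difference 0.97, SE 0.08, adjusted p = 1.61e-08), where 15.7% of transcripts were called, and the difference within replicates was 0.95, 0.93 and 1.05. It was 1.65-fold higher in shHP1g than in shGLP (0.73, SE 0.08, adjusted p = 1.65e-06, 10.7% called). Both calls remained in all 37 alternatives, including the model without the replicate number. The tested myeloid markers LYZ and MPO were called in the same 2 comparisons, both higher in shGLP (median log2 difference -1.99 for shG9a minus shGLP and -1.85 for shHP1g minus shGLP), and their part was not tested. Between shHP1g and shG9a the difference was -0.25 (SE 0.08, adjusted p = 0.041, 15.1% called) and positive in replicate 1 (0.09, against -0.41 and -0.46). That call was lost without the replicate number (0.587), without replicate 2 or 3 (0.353 and 0.461) and without any of 8 libraries, replicates 2 and 3 of the shG9a and shHP1g conditions (0.0597 to 0.131).

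**Figure D2:**
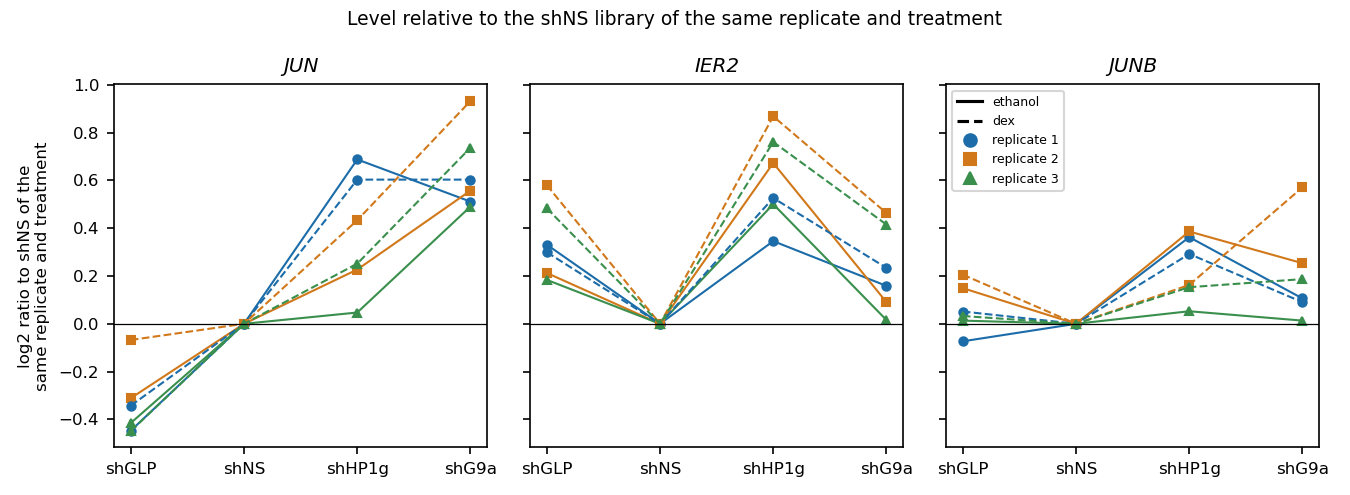
Log2 ratio of JUN, IER2 and JUNB to shNS cells of the matching treatment and replicate; colours and symbols are replicates, solid lines ethanol and dashed lines dex. All 6 JUN ratios lie below 0 with shGLP and above 0 with shHP1g and shG9a, whereas all IER2 ratios lie above 0.

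IER2 was higher with each depletion than in shNS, in 6 of 6 pairs for each. HP1γ depletion raised it by 0.51 with ethanol (SE 0.07, adjusted p = 0.000119, 2.91% of transcripts called) and by 0.72 with dex (SE 0.07, adjusted p = 7.22e-07). In dex-treated cells G9a depletion raised it by 0.37 (SE 0.07, adjusted p = 0.00178) and GLP depletion by 0.45 (SE 0.07, adjusted p = 0.000169, 5.77% called). With ethanol the changes were 0.09 for shG9a (adjusted p = 0.632) and 0.24 for shGLP (adjusted p = 0.0573). The 3 depletions were compared with the same 3 shNS libraries of each treatment, so these values are not independent. Without replicate 3 the shG9a and shGLP calls with dex were lost (adjusted p = 0.114 and 0.0525). The shG9a call with dex was also lost with only the compared groups in the model (0.37, adjusted p = 0.0702, edgeR). Between depletions IER2 was higher in shHP1g than in shGLP by 0.27 (adjusted p = 0.000618, and 0.0535 without replicate 3) and than in shG9a by 0.39 (adjusted p = 7.4e-06). The LYZ difference of the shGLP libraries stood beside the shGLP values as it did for JUN. The fibroblast marker COL1A1, at 9 to 41 counts, was also higher with shHP1g (0.97 with ethanol, 0.95 with dex) and with shGLP (0.90 and 0.91), while COL1A2 stood at 0 to 2 counts, and their part in the IER2 levels was not tested.

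In order of mean level, IER2 ran from shNS dex (107 CPM) through shG9a dex (138), shGLP dex (147), shNS ethanol (169.6), shHP1g dex (176), shG9a ethanol (180) and shGLP ethanol (200.2) to shHP1g ethanol (243 ± 40.3). Neighbours were separate in every library between shNS dex and shG9a dex, between shGLP dex and shNS ethanol and between shG9a ethanol and shGLP ethanol, and overlapped otherwise. For JUN all neighbours overlapped along the order from shGLP dex (49 ± 12.4 CPM) to shG9a ethanol (102 ± 18.3).

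JUNB changed less with depletion than JUN or IER2. In dex-treated cells it rose with shG9a by 0.29 (SE 0.08, adjusted p = 0.0326), and replicate 2 at 127 CPM was far above the other 2 shG9a libraries at 93.9 and 99.6. Without that library the change was 0.16 (adjusted p = 0.268). The call was also lost without shNS dex replicate 1, 2 or 3 (0.0614 to 0.169), without replicate 2 or 3 (0.466 and 0.153), with only the compared groups in the model (0.212) and without the replicate number in it (0.0869). No other comparison with shNS passed for JUNB, the nearest being shHP1g with ethanol (0.27, adjusted p = 0.0959). In order of mean level it ran from shNS dex (87.1 ± 1.45 CPM), which was separate from its neighbour shGLP dex (93.2 ± 4.78), to shHP1g ethanol (126 ± 12.5), and all other neighbours overlapped.

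**Figure D3:**
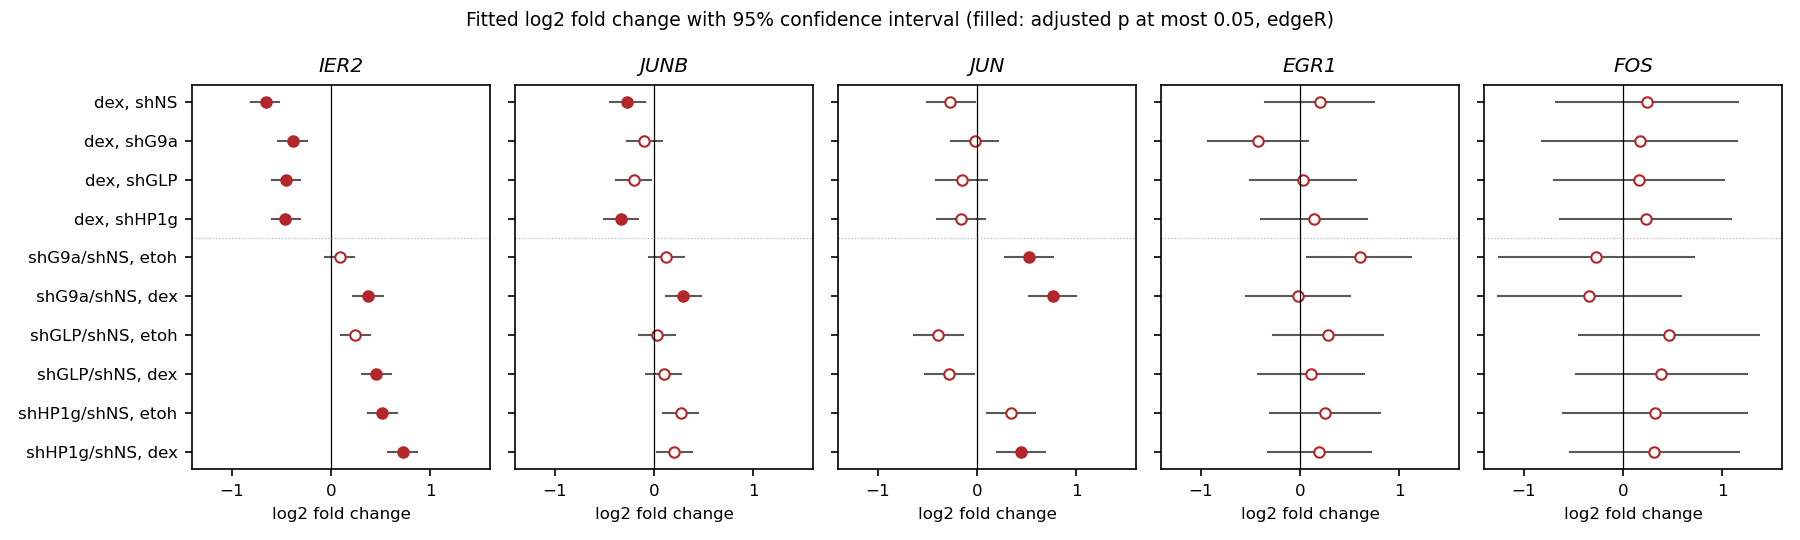
Fitted log2 fold change (horizontal axis) with 95% confidence interval of the 5 tested members in 4 dex comparisons and 6 comparisons with shNS; filled points passed an adjusted p of 0.05 (edgeR). IER2 points lie below 0 for dex and above 0 for depletion, JUN points change sign between shGLP and the other depletions, and the FOS intervals all span 0.

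EGR1 and FOS were not called in any comparison, at a depth that leaves wide intervals. EGR1, with its pair of CArG boxes, was at 2.17, 2.3 and 1.7 CPM in shNS with ethanol and at 3.31, 1.98 and 1.86 with dex, which overlapped. Its change with dex in shNS was 0.20 (95% interval -0.35 to 0.74, adjusted p = 0.755), and its largest against shNS was 0.60 with shG9a and ethanol (0.07 to 1.12, adjusted p = 0.236), where the libraries stood at 3.02, 2.58 and 3.72 CPM. Over the 8 conditions its means ran from 2.05 to 3.11 CPM.

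FOS, the founding partner of JUN in AP-1, was at 0.954, 0.46 and 2.04 CPM in shNS with ethanol and at 1.38, 1.2 and 1.53 with dex. The change was 0.24 (95% interval -0.68 to 1.16, adjusted p = 0.834). Condition means ran from 0.943 CPM (shG9a with ethanol) to 1.78 (shGLP with dex), and all neighbours in that order overlapped, as they did for EGR1. In shNS alone the interval for FOS held a fall of the size fitted for IER2 (-0.66), whereas averaged over the shRNA the FOS interval given above did not hold the IER2 change of -0.49.

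Of the 5 tested members, 2 were called for dex in shNS, 1 in shG9a, 1 in shGLP and 2 in shHP1g, all lower. Against shNS, 1 was called for shG9a, 0 for shGLP and 1 for shHP1g with ethanol, and 3, 1 and 2 with dex, all higher. These counts come from few genes that share libraries and are set beside the shares of all transcripts given above.

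Of 14 other genes of the AP-1 and ATF family, 7 had a tested accession (9 transcripts). With dex 1 of these 9 was called in shNS (9.95% of all transcripts), 1 in shGLP (3.29%) and 3 averaged over the shRNA (23.8%). BATF3, a partner of JUN proteins in lymphocytes, fell with dex in shNS from 30.3 to 20.4 CPM (log2 change -0.57, SE 0.15, adjusted p = 0.0113) and in shGLP from 32.3 to 22.1 (-0.55, adjusted p = 0.0389). In dex-treated cells it was higher with shG9a (34.2 CPM, 0.75, SE 0.14, adjusted p = 0.00175). BATF, at only 6 to 43 counts per library, was higher with shGLP and dex (1.01, adjusted p = 0.0337). Averaged over the shRNA, BATF rose (0.47, adjusted p = 0.0238) and BATF3 (-0.45, adjusted p = 5.31e-05) and the small MAF protein MAFK (-0.11, adjusted p = 0.00607) fell, and the other 6 transcripts were not called. The median change was -0.12, beside -0.01 over all tested.

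Of the 4 EGR partners, 3 genes (4 transcripts) were tested. NAB2, a corepressor of EGR factors that EGR1 itself induces, fell with dex in shNS from 1.38 to 0.577 CPM (log2 change -1.24, SE 0.33, adjusted p = 0.0148), at 5 to 23 counts per library. Averaged over the shRNA it fell by 0.97 (adjusted p = 4.87e-05). NAB1 and EGR4 were not called with dex. EGR4, a relative of EGR1, had only 5 to 34 counts per library. It was higher in shG9a than in shGLP (1.08, SE 0.24, adjusted p = 0.00317) and higher in shHP1g than in shGLP (1.00, SE 0.25, adjusted p = 0.0101), and was called in neither treatment against shNS.

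Of 23 names of upstream regulators, 13 had a tested accession (14 transcripts), MKL2 and MRTFB being the same gene. ELK3, an ETS family partner of SRF, fell with dex in shNS (-0.57, SE 0.11, adjusted p = 0.00127), and the ribosomal S6 kinase gene RPS6KA1 rose (0.47, SE 0.11, adjusted p = 0.00745). The related RPS6KA3 was higher with shG9a (0.37 with ethanol and 0.30 with dex), with shGLP (0.31 and 0.35) and in dex-treated cells with shHP1g (0.27), at adjusted p of 0.00198 to 0.0293. Averaged over the shRNA, RPS6KA1 rose (0.29, adjusted p = 0.000437), and ELK3 (-0.33, adjusted p = 0.000113) and RPS6KA3 (-0.18, adjusted p = 0.000411) fell. SRF itself was not called.

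Of the other immediate early genes listed, more rose than fell with dex. The list was chosen with earlier results of these data known. It holds CD69 and NFKBIA, which the paper lists among its dex-regulated genes from the same libraries. The direction of the list therefore does not describe immediate early genes in general. Of 24 names, 12 genes were tested with 1 transcript each. In shNS, 6 rose, 1 fell and 5 were not called, with a median change of 0.36 beside -0.03 over all tested. Among all tested transcripts 9.95% were called in this comparison, 457 higher and 555 lower. Those that rose included CD69, an early activation antigen of lymphocytes (1.80, SE 0.21, adjusted p = 1.43e-06), ZFP36L2, an mRNA decay factor (1.30, SE 0.08, adjusted p = 1.89e-11), and NFKBIA, the inhibitor of NF-κB (1.09, SE 0.07, adjusted p = 1.1e-10). NFKBIA, like ZFP36 and GADD45B on this list, is also known as a gene that glucocorticoids act on. ZFP36 (0.43), GADD45B (0.44) and IER5 (0.32) rose less.

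PHLDA1, an immediate early gene of growth factor signalling, fell with dex in shNS from 36.6 to 13.2 CPM (log2 change -1.46, SE 0.14, adjusted p = 1.3e-07). It also fell in shG9a (-1.04), shGLP (-0.82) and shHP1g (-0.74). PHLDA1 was lower with shGLP and ethanol (22.9 CPM, -0.68, adjusted p = 0.00371), and higher with shHP1g with ethanol (64.5 CPM, 0.80, adjusted p = 0.000752) and with dex (38.2 against 13.2 CPM, 1.52, adjusted p = 3.46e-07). NFKBIA was lower in dex-treated cells with each depletion, by -0.36 for shG9a, -0.40 for shGLP and -0.46 for shHP1g (adjusted p = 0.00165, 0.000611 and 0.000214), in comparisons that share the shNS dex libraries. From the same libraries, the paper already lists NFKBIA as a dex-regulated gene dependent on G9a, GLP and HP1γ.

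**Figure D4:**
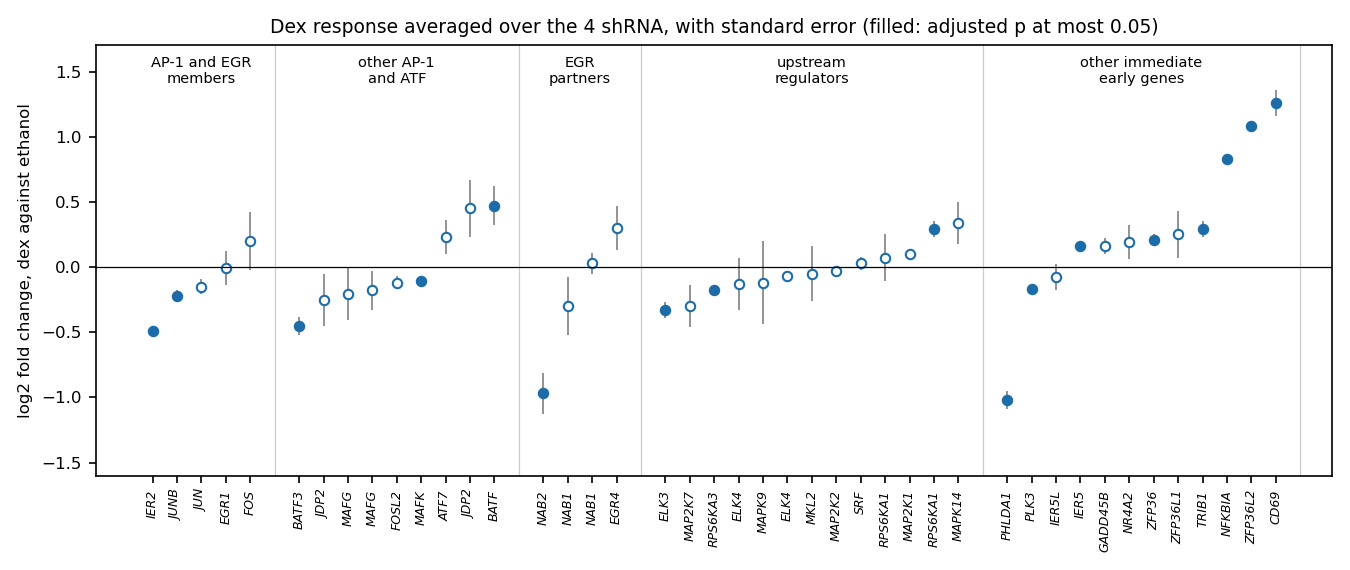
Log2 change with dex averaged over the 4 shRNA (vertical axis, bars are standard errors) for tested transcripts of the AP-1 and EGR members and of 4 related gene lists; filled points passed an adjusted p of 0.05. IER2 (-0.49) and JUNB (-0.22) are below 0 with NAB2 (-0.97), BATF3 (-0.45) and PHLDA1 (-1.02), while CD69 (1.26), ZFP36L2 (1.08) and NFKBIA (0.83) lie above.

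Members were compared in pattern over the 24 libraries by Pearson's r of log2 CPM after the replicate means had been subtracted, as a description, since libraries of a condition and a day share cells and handling. JUNB resembled IER2 (r = 0.72) and JUN (0.64), while JUN and IER2 had r = 0.23. FOS had r of -0.18 to 0.03 with the other 4. The transcripts most like JUN were PDGFRA (0.95), MTSS1L (0.95) and EXOSC4 (0.92). For IER2 they were SCN4A (0.94), EPHB4 (0.93) and MID1IP1 (0.92), and for JUNB MEX3A (0.87), RFTN1 (0.85) and MEX3B (0.84). For FOS and EGR1, at low counts, no transcript exceeded 0.73 and 0.71.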

How the data were processed

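RNA-seq of 24 Nalm6 libraries was re-analysed from the table of counts deposited by the authors, who used HISAT2 for the mapping of trimmed paired-end reads (genome build hg19, GRCh37) and GenomicAlignments for counts per RefSeq accession; counting mode, strand and RefSeq release are not given in the sources used here. Although its name says CPM, the table held only whole numbers with unequal totals, which were taken as raw counts. A second deposited table holds the authors' fold changes and adjusted p values and served only to pair accessions with symbols. All columns could be assigned to a sample.

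Counts were fitted in R 4.3.3 with edgeR 4.0.16 (quasi-likelihood, upper quartile factors of 0.967 to 1.03, more than 1 CPM in at least 2 libraries, 8 groups plus replicate number, Benjamini-Hochberg over 10167 transcripts, limit 0.05, no fold cutoff). The replicate number stood in for the RUV step of the study, as replicates were collected on different days. Deviations of same-numbered libraries from their group means correlated with r of 0.0122 to 0.535 (median 0.147, 84 pairs). Normalized CPM are counts scaled to libraries of equal size by those factors. Promoter sequences are from RefSeq (GRCh38.p14) and were matched by symbol. They were not used for the counts.

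The members and the gene lists were chosen with earlier results of these data known. Named were all members, list genes that passed the limit (at most 6 a comparison), the known dex targets, the depleted genes and the 3 transcripts most like each member. Some genes of the lists are not reported here. Intervals cover the fitted error and detection limits counting error only. Alternatives were TMM factors, no factors, DESeq2 1.42.0, limma 3.58.1 on log2(CPM + 1), no filter, a filter of 5 CPM, RUVr with 2 factors, no replicate block, only the compared groups, counts summed per symbol and leaving out replicates or libraries.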

Additional observations from a re-analysis of the deposited data

Results flagged for a closer look

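JUN differed between depletions in opposite directions: it was above shNS in 6 of 6 pairs of the same treatment and replicate with shG9a and with shHP1g, and in 0 of 6 with shGLP. Against shNS the shGLP change passed in neither treatment (adjusted p = 0.0785 with ethanol and 0.232 with dex, edgeR), and the shHP1g change passed with dex alone, in a call lost under 10 of 37 alternatives. The tested difference was 0.97 (log2) between shG9a and shGLP and 0.73 between shHP1g and shGLP, both past the limit, in comparisons added after the data had been seen. The myeloid markers LYZ and MPO were higher in shGLP in both of these comparisons, and their part in the differences was not tested.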

How the results depend on the processing

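No call of a member changed its sign under any alternative, and the 5 tested members limit every count to 5. The number of members called for dex in shNS was 1 (2 in the reported model) with TMM factors, DESeq2, a filter of 5 CPM, no replicate block or summed accessions, and that for dex in shHP1g was 1 (2) with TMM factors, the 5 CPM filter or no replicate block. Without the replicate block it was 0 (1) for shG9a with ethanol, 1 (3) for shG9a with dex, 1 (2) for shHP1g with dex and 1 (2) for shHP1g against shG9a, and the block changed no other count by over 1.5 times. For shGLP with ethanol it was 1 (0) with TMM factors, no filter, the 5 CPM filter or summed accessions and 2 with DESeq2, RUVr or only the compared groups. With only the compared groups it was 2 (1) for dex in shGLP, 2 (1) for shGLP with dex, 1 (3) for shG9a with dex, 2 (1) for shG9a against shGLP and 1 (2) for shHP1g against shG9a. RUVr gave 2 (1) for shHP1g with ethanol and 3 (1) for shG9a against shGLP, TMM gave 1 (2) for shHP1g with dex, and the 5 CPM filter gave 1 (2) for shHP1g against shG9a. JUN was also called lower with dex in shNS with only the compared groups (-0.24). Averaged over the shRNA, its fall with dex was called with RUVr (-0.15) and with no filter (-0.18).

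Leaving out a replicate or library gave 1 to 2 members for dex in shNS, 0 to 1 in shG9a, 0 to 1 in shGLP, 0 to 2 in shHP1g and 2 to 3 averaged. Against shNS it gave 0 to 1 for shG9a, 0 to 2 for shGLP and 1 to 2 for shHP1g with ethanol, and 1 to 3, 0 to 1 and 1 to 2 with dex. Between depletions it gave 1 to 2 for shG9a against shGLP, 1 to 3 for shHP1g against shGLP and 1 to 2 for shHP1g against shG9a, and it gave 0 for each difference in dex response. The cause of these changes was not tested.

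The split of all calls moved with the scaling. With dex in shNS, 457 of 1012 calls were higher, against 523 of 926 with TMM factors. The same shares were 162 of 379 against 191 of 334 (TMM) for shG9a with ethanol, 165 of 296 against 144 of 323 (no factors) and 162 of 364 (DESeq2) for shHP1g with ethanol, 337 of 587 against 259 of 556 (DESeq2) for shGLP with dex and 259 of 416 against 198 of 432 (DESeq2) for shHP1g with dex. They were 655 of 1596 against 908 of 1612 (TMM) and 819 of 1495 (DESeq2) for shG9a against shGLP, and 959 of 1533 against 758 of 1516 (TMM) and 649 of 1434 (DESeq2) for shHP1g against shG9a. Over the 4 dex and 6 depletion comparisons, 296 to 1012 transcripts were called in the reported model, 66 to 518 without the replicate block, 630 to 1555 with RUVr and 125 to 2186 with only the compared groups. The median of all transcripts moved by less than 0.1. Depth limits FOS and EGR1 at 4 to 45 counts.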
